A study of Mus musculus with 6 samples.

Results

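Polycomb repressive complex 2 (PRC2) was examined through 10 genes that encode its core and accessory subunits, namely Suz12, Eed, Ezh1, Ezh2, Jarid2, Rbbp4, Rbbp7, Phf1, Phf19 and Mtf2. The genes were chosen by name from a table of 41126 genes, and all 10 were found in it and passed the filter on low counts, as did 15462 genes in all. RNA-seq was performed on cultured dermal fibroblasts from the ventral skin of neonatal mice (postnatal day 4, CD1 and C57Bl6 strains), with 3 control and 3 gain-of-function (GOF) libraries. GOF cultures are labelled AdCre; Ctnnb1Δex3/+. In them, Adenovirus-Cre removes exon 3 of Ctnnb1 from one allele, which leaves a β-catenin protein that escapes degradation and keeps canonical Wnt signaling active. Control cultures are labelled AdGFP; +/+, and the methods of the study describe them as carrying the same transgene with Adenovirus-GFP, so that virus and β-catenin both distinguish the groups. A treatment note shared by all labels states 6 hours of Adenovirus-Cre (366 to 500 MOI) even for controls, and it was not used to assign groups. The cultures came from 4 animals, as read from the number that opens each sample title. Control replicate 0 and GOF replicate 2 shared an animal, as did Control replicate 2 and GOF replicate 0. Cultures of a shared animal thus carry different genotype labels, and this conflict was not resolved. The libraries were made from whole cultures, in which fewer cells of a type and less RNA per cell cannot be told apart.

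PRC2 places methyl groups on lysine 27 of histone H3, a mark of silenced developmental genes. Ezh1 and Ezh2 are alternative catalytic subunits. Suz12 holds the complex together, Eed binds the finished mark and stimulates the enzyme, and Rbbp4 and Rbbp7 are histone-binding proteins shared with other chromatin complexes. Accessory subunits guide the complex to its sites. The Polycomb-like proteins Phf1, Mtf2 and Phf19 define one form of the complex, whereas Jarid2 and Aebp2 define another. Ezh2 is known as a gene of dividing cells and a target of E2F factors, while Ezh1 is also made in resting cells. In skin, PRC2 is best known for holding back differentiation genes in epidermal progenitors.

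Of the 10 PRC2 genes, 1 passed the threshold in GOF against control cultures. This was Phf19, which fell 3.0-fold (edgeR's quasi-likelihood test, log2 fold change -1.59, adjusted p = 0.00689). An adjusted p under 0.05 was reached by 21.2% of all genes tested, and by 10.2% in the lower direction. With a fold change of over 2 required as well, Phf19 was among the 5.64% of genes called lower. The remaining 9 genes did not pass, but this test took no account of shared animals. With a correlation within animals, Eed, Ezh2 and Phf1 passed as well. That fit called 2177 genes in all at a fold change of over 2, against 1906 without the correlation. Without it, the 95% interval of each of the 9 fold changes lay within a 2-fold change in either direction. The same held for 57.4% of all genes tested. At an unadjusted p under 0.05 there were 4 PRC2 genes (Phf19, Phf1 and Ezh2, fitted lower, and Eed, fitted higher), against a background of 34.9%. FPKM, a level scaled to transcript length and library size, did not overlap between the groups for 6 PRC2 genes, of which Eed and Ezh1 lay higher and Ezh2, Phf1, Phf19 and Rbbp4 lower in GOF cultures. Across all genes tested, 39.5% did not overlap (20.3% higher and 19.2% lower). The median log2 fold change of the 10 genes was -0.06, beside -0.02 over all genes tested, and the median size of the change without its sign was 0.27 against 0.34. Their summed FPKM ranged from 157 to 164 in control and from 154 to 164 in GOF libraries.

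Promoters of Phf19, Ezh2, Suz12 and Eed are shown because Ezh2 is known as an E2F target, and the first 3 of these genes hold an E2F-like word near their start site. Each sequence is a stretch of 120 bases from the RefSeq promoter table (GRCm38.p6), read 5′ to 3′ on the strand of the gene. Capitals mark an E2F-like word. The words searched on both strands were TTTGGCGC, TTTCCCGC, TTTCGCGC and TTTGCCGC, within windows from 250 bases before to 50 bases after a start site. The Eed stretch holds none of them and is shown for contrast. The windows of Phf1 and Rbbp4, whose GOF libraries all lay below the controls in FPKM, also held none. Suz12 holds such a word and had a log2 fold change of -0.02. The part of these words in the changes was not tested.
Phf19, chr2:34914105-34914224, minus strand: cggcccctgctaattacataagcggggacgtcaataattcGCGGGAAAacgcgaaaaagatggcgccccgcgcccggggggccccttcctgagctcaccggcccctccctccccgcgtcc
Ezh2, chr6:47595016-47595135, minus strand: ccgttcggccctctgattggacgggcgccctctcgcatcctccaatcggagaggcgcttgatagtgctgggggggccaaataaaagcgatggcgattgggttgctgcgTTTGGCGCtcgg
Suz12, chr11:79992856-79992975, plus strand: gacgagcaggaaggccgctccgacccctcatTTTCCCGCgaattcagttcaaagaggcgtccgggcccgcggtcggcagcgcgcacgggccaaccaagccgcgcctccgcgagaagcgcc
Eed, chr7:89980977-89981096, minus strand: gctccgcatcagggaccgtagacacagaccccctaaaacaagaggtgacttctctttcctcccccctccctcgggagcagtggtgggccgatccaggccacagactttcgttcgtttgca
The 10 genes had 12 windows in the table, and 3 of these held such a word, in Ezh2, Phf19 and Suz12. Among all 32851 windows, 744 did (2.26%). G and C made up 64.3% of the Ezh2, 74.3% of the Phf19 and 71% of the Suz12 window. The share over all windows was not matched for base composition. In Phf19 the word is TTTCCCGC read on the opposite strand, so it appears as GCGGGAAA. The Tcf/Lef-like word CTTTGAT, a short form of the site bound by the partners of β-catenin, was in 0 of the 12 windows and in 3.73% of all windows. These matches describe letters in a short window, not binding.

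**Figure D1:**
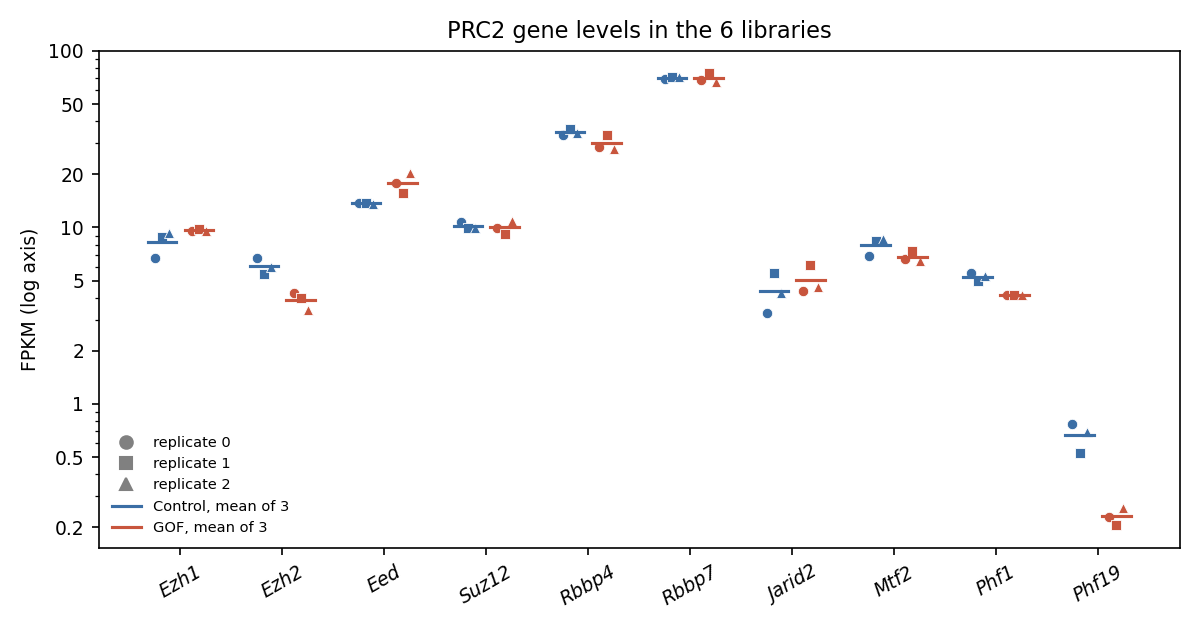
FPKM of the 10 PRC2 genes (log axis) in each of the 3 control (blue) and 3 GOF (red) libraries, with the mean of each group as a line. Marker shapes give the replicate number. Phf19 is the lowest gene and its GOF libraries (0.205 to 0.258) sit below its control libraries (0.528 to 0.768), whereas the points of Suz12 and Rbbp7 intermingle.

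Levels per length differed widely among the PRC2 genes. In control libraries Rbbp7 was highest at 70.5 FPKM, followed by Rbbp4 (34.6), Eed (13.7), Suz12 (10.2), Ezh1 (8.29), Mtf2 (7.95), Ezh2 (6.03), Phf1 (5.26), Jarid2 (4.36) and Phf19 (0.664). Neighbours in this order had separate ranges over the 3 libraries except for Ezh1 with Mtf2, Ezh2 with Phf1 and Phf1 with Jarid2. In GOF libraries the order was the same down to Mtf2, and then Jarid2 (5.04), Phf1 (4.14), Ezh2 (3.87) and Phf19 (0.231) followed. There the neighbours that overlapped were Suz12 with Ezh1 and Phf1 with Ezh2. By mean level, Ezh2 thus stood above Jarid2 and Phf1 in control and below both in GOF libraries. Its range overlapped that of Phf1 in each group and that of Jarid2 in control libraries.

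Among the catalytic subunits, Ezh2 (chromosome 6 from 47530139 to 47595341, GENCODE M21 on GRCm38) measured 6.68, 5.42 and 5.99 FPKM in Control replicates 0, 1 and 2 and 4.26, 3.96 and 3.39 FPKM in GOF replicates 0, 1 and 2. Every GOF library lay below every control library, and the mean went from 6.03 ± 0.628 to 3.87 ± 0.443 FPKM (SD, n = 3 each), a change of -35.8% (exact permutation test, two-sided, p = 0.1, which is the lowest value possible with 3 libraries in each group). On fragments, the log2 fold change was -0.47 (standard error, SE, 0.18, 95% interval -0.88 to -0.06) with an unadjusted p of 0.0302 and an adjusted p of 0.101 by edgeR, which does not pass. Between 399 and 713 fragments per library stood behind these values. As a log2 ratio, the mean FPKM of Ezh2 changed by -0.64, more than the fragments did. The call depended on the model and on whether fragments or FPKM were used. With a correlation among libraries of the same animal the adjusted p was 0.0303, and with limma on log2(FPKM + 1) it was 0.0357, whereas a replicate block by animal gave 0.071. Within the animals that gave both cultures, the Ezh2 differences were -0.37 and -0.93 on the log2 scale of CPM (fragments scaled to library size). The second was that of Control replicate 0, the library with the highest Ezh2.

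Ezh1 (chromosome 11 from 101191115 to 101226463) measured 6.67, 8.86 and 9.35 FPKM in the control and 9.52, 9.85 and 9.52 FPKM in the GOF replicates. The groups did not overlap, but the nearest libraries, Control replicate 2 and GOF replicates 0 and 2, were close together, and Control replicate 0 alone lay far below the rest. The means were 8.29 ± 1.43 and 9.63 ± 0.193 FPKM (SD, n = 3 each), and the log2 fold change was 0.27 (SE 0.14, adjusted p = 0.214 by edgeR). It ranged from 0.15, without Control replicate 0, to 0.35 over 16 alternative fits and passed in none of them.

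Set side by side within each library, the paralogs showed a lower share of Ezh2 in GOF cultures. Ezh2 made up 50%, 38% and 39% of the summed Ezh1 and Ezh2 FPKM in the control replicates and 30.9%, 28.7% and 26.2% in the GOF replicates. The groups were apart, at 42.3% ± 6.69 and 28.6% ± 2.34 (SD, n = 3 each), a difference of -13.7 percentage points (exact permutation test, two-sided p = 0.1). Within the shared animals the differences were -23.8 and -8.11 points. Without Control replicate 0, which had equal levels of the paralogs, the difference was -9.89 points. From fragments per kilobase of exon in place of FPKM it was -10.8 points.

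**Figure D2:**
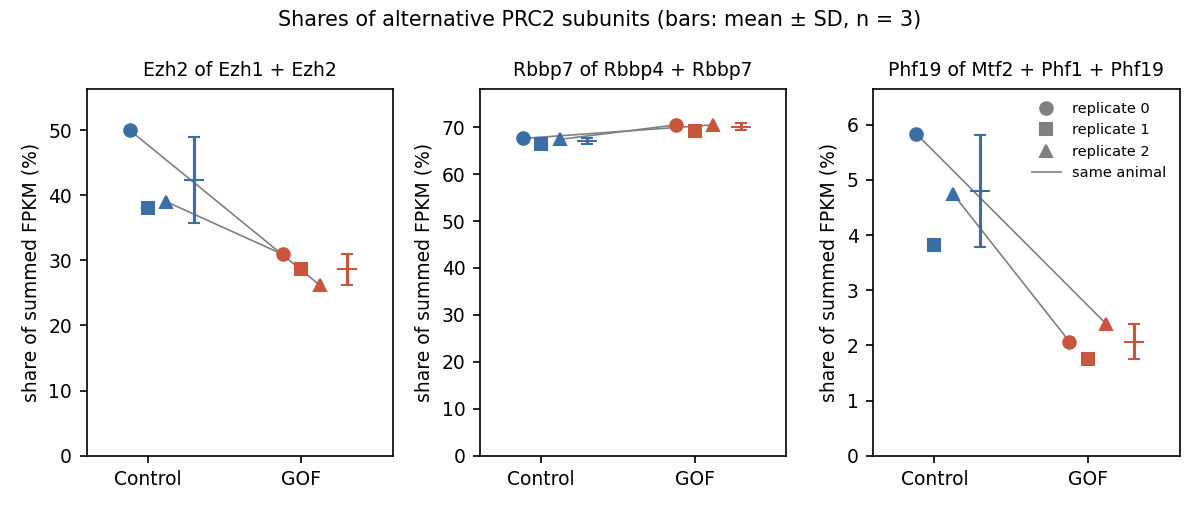
Share of summed FPKM (%, axes from 0) held by Ezh2 among the catalytic subunits, Rbbp7 among the histone-binding subunits and Phf19 among the Polycomb-like subunits, in control (blue) and GOF (red) libraries. Bars are mean ± SD (n = 3) and grey lines join cultures of the same animal. Ezh2 went from 42.3% to 28.6% and Phf19 from 4.8% to 2.07%, while Rbbp7 went from 67.1% to 70.0%.

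Of the core scaffold genes, Eed (chromosome 7 from 89954654 to 89980983) measured 13.8, 13.8 and 13.6 FPKM in the control and 17.9, 15.7 and 20.3 FPKM in the GOF replicates. All GOF libraries lay above the controls, and the spread among GOF libraries (18 ± 2.26 FPKM) was larger than that among controls (13.7 ± 0.144 FPKM, SD, n = 3 each). The log2 fold change was 0.36 (SE 0.12, 95% interval 0.08 to 0.63, unadjusted p = 0.0172, adjusted p = 0.0694 by edgeR), so Eed did not pass. It passed with DESeq2 (adjusted p = 0.0246) and with a correlation within animals (adjusted p = 0.0181), and in 2 of 16 alternatives in all. Both shared animals gave a positive difference, of 0.35 and 0.46 on the log2 scale of CPM.

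Suz12 (chromosome 11 from 79993106 to 80034123) measured 10.8, 9.87 and 9.93 FPKM in the control and 9.9, 9.19 and 10.9 FPKM in the GOF replicates, with overlapping ranges. Its mean was 10.2 ± 0.519 and 10.0 ± 0.877 FPKM (SD, n = 3 each). The log2 fold change of -0.02 (95% interval -0.28 to 0.25, adjusted p = 0.93 by edgeR) had a sign that depended on which library was left out.

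The histone-binding genes carried the most fragments of the complex. Rbbp7 (chromosome X from 162760402 to 162779092) measured 69.6, 70.9 and 70.9 FPKM in the control and 68.6, 74.6 and 66.3 FPKM in the GOF replicates. The GOF libraries lay on both sides of the controls, and the log2 fold change was -0.01 (95% interval -0.30 to 0.28, adjusted p = 0.964 by edgeR). Rbbp4 (chromosome 4 from 129307100 to 129335370) measured 33.4, 36 and 34.3 FPKM in the control and 28.7, 33.3 and 27.8 FPKM in the GOF replicates. Its groups were apart by a small margin, with GOF replicate 1 just below Control replicate 0, and its log2 fold change was -0.17 (SE 0.13, adjusted p = 0.405 by edgeR), which became -0.07 without GOF replicate 2 and -0.29 without GOF replicate 1. As a share of the pair, Rbbp7 made up 67.6%, 66.4% and 67.4% in the control and 70.5%, 69.2% and 70.5% in the GOF replicates. This difference of 2.95 percentage points separated the groups (exact permutation test, two-sided p = 0.1) and was 2.94 and 3.11 points within the shared animals, but it was 2.0 points from fragments per kilobase of exon. Stretches of 100 bases shared on either strand with transcripts of other genes made up 14.5% of Rbbp4 and 3.83% of Rbbp7. No such stretch was shared between these paralogs. Exons on the opposite strand overlapped 9.1% (Gm26722) and 8.94% (Sync) of Rbbp4 exon bases and 5.98% (Txlng) of those of Rbbp7. Such overlaps were 6.93% for Mtf2, 6.82% for Eed, 3.6% for Suz12 and 2.61% for Ezh2. Whether the counting used strand is not stated.

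**Figure D3:**
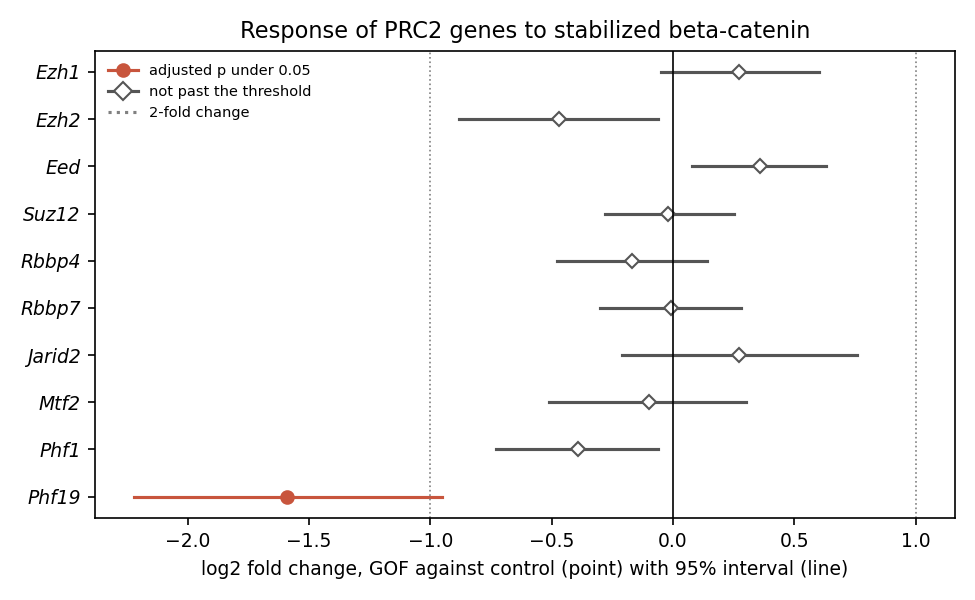
Log2 fold change of each PRC2 gene in GOF against control cultures (point) with its 95% interval (line), by edgeR over all genes tested. Phf19 (filled, -1.59) is past an adjusted p of 0.05, and the intervals of the other 9 genes lie between the dotted lines that mark a 2-fold change.

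The Polycomb-like subunits carry a Tudor domain and link the complex to CpG-rich DNA. Phf19 (chromosome 2 from 34893757 to 34914026) measured 0.768, 0.528 and 0.696 FPKM in the control and 0.229, 0.205 and 0.258 FPKM in the GOF replicates. Every GOF library was below every control library, and the mean went from 0.664 ± 0.123 to 0.231 ± 0.0262 FPKM (SD, n = 3 each), a change of -65.3%. Phf19 is the least abundant of the 10 genes, with 102, 90 and 106 fragments in the control and 28, 32 and 43 fragments in the GOF libraries, fewer than any other PRC2 gene. The log2 fold change was -1.59 (SE 0.27, 95% interval -2.22 to -0.95, adjusted p = 0.00689 by edgeR). Within the shared animals it fell by 1.84 and 1.44 on the log2 scale of CPM. Phf19 passed in all 15 alternatives in which it was tested (adjusted p from 1.26e-05 to 0.0384), and it was not tested where an FPKM of at least 1 in 3 libraries was required.

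Phf1 (chromosome 17 from 26933052 to 26937908) measured 5.52, 4.95 and 5.33 FPKM in the control and 4.15, 4.15 and 4.12 FPKM in the GOF replicates. The GOF libraries were nearly equal and all below the controls, with means of 5.26 ± 0.292 and 4.14 ± 0.0179 FPKM (SD, n = 3 each). The log2 fold change was -0.39 (SE 0.14, 95% interval -0.73 to -0.06, unadjusted p = 0.0265, adjusted p = 0.0927 by edgeR), and Phf1 passed in 1 alternative, with a correlation within animals (adjusted p = 0.0393). Its value is uncertain because 39.3% of its exon bases overlap exons of Cuta on the opposite strand. The library kit keeps strand, but whether the counting used it is not stated. Cuta, the more abundant of the overlapping genes, measured 56.4 FPKM in control and 47.5 FPKM in GOF cultures on average (log2 fold change -0.29, adjusted p = 0.133 by edgeR).

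Mtf2 (chromosome 5 from 108065674 to 108109004) measured 6.88, 8.33 and 8.63 FPKM in the control and 6.65, 7.37 and 6.43 FPKM in the GOF replicates, with GOF replicate 1 above Control replicate 0. Its log2 fold change of -0.10 (SE 0.17, adjusted p = 0.711 by edgeR) was 0.01 without GOF replicate 2. Mtf2 was the leading Polycomb-like gene in every library. Among the summed FPKM of the 3 genes, Phf19 made up 5.84%, 3.82% and 4.75% in the control and 2.07%, 1.75% and 2.39% in the GOF replicates, a difference of -2.73 percentage points with no overlap (exact permutation test, two-sided p = 0.1). The Mtf2 share was 57.2% and 60.9% (exact permutation p = 0.3) and the Phf1 share 38.0% and 37.0% (exact permutation p = 0.8) in control and GOF cultures, both with overlapping groups. The Mtf2 difference of 3.72 points was 1.26 points without Control replicate 0 and 6.44 points on fragments per kilobase of exon.

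Jarid2 (chromosome 13 from 44729474 to 44921643), which helps bring PRC2 to chromatin and can itself be methylated by it, measured 3.29, 5.53 and 4.28 FPKM in the control and 4.37, 6.15 and 4.6 FPKM in the GOF replicates. The ranges overlapped widely. The log2 fold change was 0.27 (SE 0.21, 95% interval -0.21 to 0.76, adjusted p = 0.393 by edgeR), and the spread among controls (SD 1.12 FPKM) exceeded the difference between the means. Leaving out Control replicate 0 gave 0.11, leaving out GOF replicate 1 gave 0.14, and leaving out GOF replicate 2 gave 0.41 on the log2 scale.

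Other PRC2 subunits were read from a list of 5 genes, of which 4 were tested, and 1 passed, in the higher direction. This was Aebp2, the zinc-finger partner of Jarid2 in the same form of the complex. Aebp2 measured 15.8, 21.2 and 23.3 FPKM in the control and 40.8, 30.4 and 28.3 FPKM in the GOF replicates, without overlap, and rose by 0.77 on the log2 scale (SE 0.17, adjusted p = 0.0184 by edgeR). It passed in 12 of 16 alternatives. The call was lost without Control replicate 1, GOF replicate 0 or GOF replicate 1 and with a replicate block by label number, where the adjusted p was at most 0.0794. Lcorl, which can stand in the place of the elongin-linked subunit Epop in the Polycomb-like form, averaged 7.81 and 10.3 FPKM with no overlap (log2 fold change 0.45, adjusted p = 0.0571 by edgeR). Its relative Lcor differed by 0.11 on the log2 scale (adjusted p = 0.768 by edgeR). Epop was low, with 11 to 22 fragments per library and a log2 fold change of 0.48 (adjusted p = 0.342 by edgeR). Ezhip, which inhibits the complex, is listed at 0 in every library. The median of the 4 tested genes was 0.47.

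Of 3 genes from the family of demethylases that act on the mark, 0 passed with edgeR or DESeq2, and 0 had an unadjusted p under 0.05. The demethylases Kdm6a and Kdm6b had log2 fold changes of -0.23 (adjusted p = 0.277) and -0.32 (adjusted p = 0.58), and the Y-linked Uty of -0.62 (adjusted p = 0.47, all by edgeR), with overlapping groups. Of the 4 enzymes that methylate lysine 36 of histone H3, a mark that hinders PRC2, 0 passed with edgeR or DESeq2, and 0 had an unadjusted p under 0.05. Their log2 fold changes were 0.13 for Nsd1 (adjusted p = 0.544), -0.13 for Nsd2 (0.483), -0.12 for Nsd3 (0.55) and 0.17 for Setd2 (0.659), each by edgeR.

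PRC1, the partner complex that binds the mark and ubiquitinates histone H2A, had 2 genes higher and 2 lower among 25. Its median log2 fold change was -0.07. Over all genes tested, 11.1% were higher and 10.2% lower at an adjusted p under 0.05 (edgeR). These shares are the background for this list and for every other list of genes read here. Scml2 went from 0.474 ± 0.191 to 0.163 ± 0.052 FPKM (SD, n = 3 each; log2 fold change -1.69, adjusted p = 0.00975 by edgeR). Scmh1 rose from 7.55 to 14.9 FPKM (0.85, adjusted p = 0.0112) and Pcgf3 from 18 to 27.7 FPKM (0.62, adjusted p = 0.0274), and they passed in 15 and 9 of 16 alternatives. Kdm2b, which brings a variant PRC1 to CpG islands, was the other gene that fell (-0.54, adjusted p = 0.0445) and passed in 5 of 16 alternatives. Among 10 genes of PR-DUB, which removes the PRC1 mark, Asxl3 alone passed (1.27, adjusted p = 0.0432), at 0.0315 and 0.0658 FPKM and in 5 of 15 alternatives. Of 13 trithorax and COMPASS genes, which oppose Polycomb silencing, Psip1 alone passed (-0.35, adjusted p = 0.043), and it did so in 6 of 16 alternatives.

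SWI/SNF remodelers, which evict Polycomb complexes, had 2 of 13 genes lower, Smarcc2 (-0.54, adjusted p = 0.0248) and Smarce1 (-0.38, adjusted p = 0.0448 by edgeR), with a median of -0.20. These passed in 9 and 8 of 16 alternatives. Since Rbbp4 and Rbbp7 also serve CAF-1, NuRD, Sin3, HAT1 and NURF, 20 other genes of those complexes were read. Of these, Smarca1, the motor of NURF, alone passed. It measured 2.34, 3.52 and 2.92 FPKM in the control and 0.552, 0.662 and 0.477 FPKM in the GOF replicates (log2 fold change -2.28, adjusted p = 0.000845 by edgeR), and it passed in all 16 alternatives. The median of that list was -0.07.

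**Figure D4:**
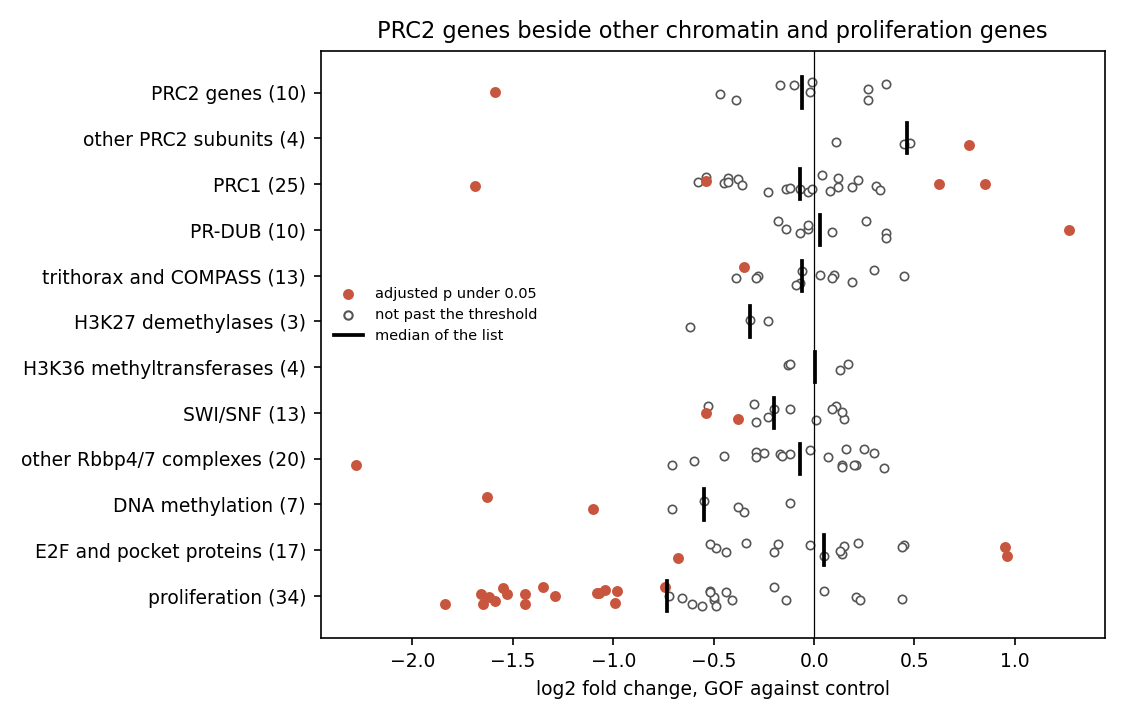
Log2 fold change in GOF against control cultures for every tested gene of PRC2 and of 11 other lists, with the number tested in parentheses. Filled points are past an adjusted p of 0.05 (edgeR) and the black bar is the median of a list. The PRC2 median is -0.06, and the proliferation list is the one with most filled points, all lower.

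Cell division genes were also lower in GOF cultures. Of 34 proliferation genes (E2F targets and mitotic genes), 17 were lower and 0 higher at an adjusted p under 0.05 (edgeR), the median log2 fold change was -0.73, and at an unadjusted p under 0.05 there were 23 lower and 0 higher. DESeq2 also called 0 of them higher. The count of lower genes was 9 without GOF replicate 0 and 11 with the replicate number as a block. Their summed FPKM was 319 to 486 in control and 222 to 235 in GOF libraries. Mki67, a nuclear protein of cycling cells, measured 6.89, 5.27 and 6.3 FPKM in the control and 1.94, 1.97 and 2.05 FPKM in the GOF replicates (log2 fold change -1.65, adjusted p = 0.000298). Plk1, a mitotic kinase, and Top2a, which untangles chromosomes, had log2 fold changes of -1.44 (adjusted p = 0.00176) and -1.59 (adjusted p = 0.00223 by edgeR). Top2a and Mki67, like Ezh2 and Phf19, were highest in Control replicate 0. Plk1 was highest in Control replicate 2 instead (3.67, 3.6 and 3.93 FPKM in Control replicates 0, 1 and 2). The part of cell division in the lower Phf19 and Ezh2 values was not tested.

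Other regulators of the cycle were mixed. Among 17 E2F and pocket protein genes, 2 were higher and 1 lower, with a median of 0.05. E2f6, a repressor that works with a variant PRC1, rose from 17.4 ± 1.71 to 34.4 ± 1.53 FPKM (SD, n = 3 each; log2 fold change 0.96, adjusted p = 0.00178 by edgeR) and passed in all 16 alternatives. Rb1 had a log2 fold change of 0.95 on fragments (adjusted p = 0.00152), but its FPKM overlapped at 12.7 ± 1.25 and 15.7 ± 3.56 (SD, n = 3 each), and it passed in 14 of 16 alternatives (highest adjusted p 0.302). Lin9 fell by 0.68 on the log2 scale (adjusted p = 0.0297 by edgeR) and passed in 10 of 16 alternatives. Of 7 DNA methylation genes, all were fitted lower and 2 passed, namely Uhrf1, which brings the maintenance methylase to replicating DNA (-1.63, adjusted p = 0.0018), and Tet1 (-1.10, adjusted p = 0.0218 by edgeR), which passed in 9 of 15 alternatives.

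Genes listed as PRC2 targets were read for their RNA only, since the mark itself was not measured in these libraries. At the INK4 and ARF locus, which PRC2 silences in young fibroblasts, Cdkn2b measured 43.5, 27.5 and 23.1 FPKM in the control and 115, 78.4 and 194 FPKM in the GOF replicates (log2 fold change 2.01, adjusted p = 0.0105 by edgeR). Cdkn2a measured 56.3, 44.7 and 35.8 FPKM in the control and 125, 56.6 and 197 FPKM in the GOF replicates. Its groups were apart by a small margin between GOF replicate 1 and Control replicate 0, and it did not pass (1.5, SE 0.48, adjusted p = 0.0627 by edgeR). Cdkn2a passed in 5 of 16 alternatives, so its call depended on the fit. Both genes of the locus were thus already expressed in control cultures. Cdkn1a, which blocks cyclin-dependent kinases and averaged 78.5 FPKM in control cultures, rose by 1.06 on the log2 scale (adjusted p = 0.00537 by edgeR). Cdkn1c fell by 1.30 (adjusted p = 0.00556 by edgeR).

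Of 38 developmental regulators known as PRC2 targets in embryonic stem cells, 21 were under the filter on low counts and 7 of these were listed at 0 in all libraries. Among the 17 tested, 7 were higher and 2 lower, but a silent gene enters the test only through the group where it is expressed, so the count is biased toward change. Irx3 measured 1.23, 1.28 and 1.78 FPKM in the control and 6.19, 4.68 and 3.95 FPKM in the GOF replicates (log2 fold change 1.73, adjusted p = 0.00158). Msx2, at 0.312 and 1.87 FPKM, and Isl1, at 0.159 and 0.955 FPKM, had log2 fold changes of 2.61 (adjusted p = 0.00155) and 2.69 (adjusted p = 0.00222 by edgeR).

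The genes whose profile over the 6 libraries was most like that of each catalytic subunit were taken by Pearson correlation of log2(FPKM + 1) among the 12240 genes that averaged at least 1 FPKM, as a description over libraries that fall into 2 groups and share animals. For Ezh2 they were Zc3hav1 (r = 0.9980), Tsr2 (0.9974), Slfn9 (0.9964), Gm10509 (0.9940) and Ms4a4d (0.9932). For Ezh1 they included Asb8 (r = 0.9911), Wwox (0.9895), Gm28017 (0.9870) and Klhl20 (0.9864). The choice by likeness fixes how these genes differ between the groups, so their own changes are not read as results.

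The libraries held 35980831 to 42834467 fragments. Axin2, a direct target of β-catenin, was at 0.136 to 0.177 FPKM in control and 14.4 to 19.2 FPKM in GOF libraries (log2 fold change 6.98, adjusted p = 4.95e-05 by edgeR), and Ctnnb1 as a whole gene did not pass (-0.05, adjusted p = 0.844). All 12 dermal fibroblast markers were tested, with summed FPKM of 4620 to 5180 in control and 4190 to 4380 in GOF libraries, and 1 of them was higher (Vim, log2 fold change 0.70) and 3 lower (Dcn, -1.67, Fbn1, -1.51, and Col1a2, -1.18) at an adjusted p under 0.05 (edgeR). All 7 keratinocyte markers were under 1 FPKM in every library. The summed FPKM of 6 skeletal muscle markers was 23.3 to 27.4 in control and 138 to 173 in GOF libraries, almost all of it Acta1, while Myod1 and Ckm stayed under the filter. The 5 adipocyte markers summed to 7.18 to 8.95 FPKM in control and 1.8 to 3.17 FPKM in GOF libraries, nearly all of it Fabp4 (7.92 and 2.29 FPKM, log2 fold change -1.79, adjusted p = 0.00532), while Adipoq, Plin1, Cidec and Lep were under the filter. The 5 melanocyte markers summed to 3.13 to 7.67 and 0.936 to 2.35 FPKM, mostly Mlana (5.43 and 0.995 FPKM, -2.48, adjusted p = 0.0176), while Dct and Tyrp1 were under the filter and Tyr lay higher in GOF libraries without passing (0.0447 and 0.11 FPKM, adjusted p = 0.081, all by edgeR). The sums of endothelial (2.81 to 3.46 and 2.39 to 4.22 FPKM), leukocyte (13.3 to 22.7 and 10.3 to 28.7 FPKM), pericyte and smooth muscle (1570 to 2180 and 1810 to 3380 FPKM) and Schwann cell markers (21.4 to 23 and 19.4 to 30.7 FPKM) overlapped between control and GOF libraries, and in the first 2 of these lists single genes passed. Of the endothelial markers, Kdr rose (0.681 and 2.34 FPKM, log2 fold change 1.77, adjusted p = 0.011) and Tek fell (1.94 and 0.425 FPKM, -2.27, adjusted p = 0.019). Of the leukocyte markers, Csf1r rose (1.32 and 3.89 FPKM, 1.52, adjusted p = 0.00186 by edgeR), while Ptprc and Adgre1 stayed under 0.1 FPKM on average in both groups. No pericyte, smooth muscle or Schwann cell marker passed. The part of other cell types in the PRC2 values was not tested.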

How the data were processed

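Stranded, paired-end libraries of 6 cultures were sequenced, and the authors aligned them to mm10 by TopHat before quantifying genes with Cuffdiff (versions not given in the sources used here). The estimated counts used here are fragments per gene and library, deposited by the authors without normalization. They were rounded, since 4.95% were not whole. FPKM values were deposited as scaled by the authors' Cuffdiff run for transcript length and depth. Of the table, 32 genes with a failed estimate were left out, and a further 6 columns of per-library values and a lncRNA table, which holds 0 of the PRC2 genes, were not used. Symbols and coordinates came from GENCODE M21 on GRCm38 (97.9% of identifiers matched), and promoters from RefSeq.

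Fragments were tested in R 4.3.3 with edgeR 4.0.16 (filterByExpr, TMM, quasi-likelihood test, Benjamini-Hochberg adjustment over 15462 genes, adjusted p under 0.05, with fold change over 2 for the count of all genes called). FPKM and shares were compared by a two-sided exact permutation test in SciPy 1.17.1. Alternatives were DESeq2 1.42.0, library totals, upper-quartile normalization, no filter, an FPKM of at least 1 in 3 libraries, limma 3.58.1 on log2(FPKM + 1) and log2(FPKM + 0.1), replicate blocks, and each library left out in turn. With 3 libraries a group, and animals shared between groups, p-values measure the spread between these cultures. Between the groups, deviations from the group mean correlated at 0.408 and 0.46 for libraries of the same animal, as read from the title numbers. For libraries with the same replicate number they correlated at -0.41, 0.0539 and -0.441, so that the animal and not the replicate number pairs them. The correlation within animals was estimated at 0.476, and the main edgeR test, with group alone, took no account of it. On simulated data for this comparison (15462 genes, 200 changed by 2 on the log2 scale), edgeR recovered 166 changed genes and made 10 false calls. Smaller changes were not simulated. The 9 PRC2 genes that did not pass had smaller fitted changes, the largest in size being -0.47 for Ezh2. The simulation therefore cannot show how often changes of their size would be found.

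The PRC2 genes and the lists beside them were chosen with earlier results of these data known. The genes named are the 10 PRC2 genes, up to 3 called genes of each list of chromatin, cell cycle and target genes by adjusted p, every gene of such lists of 5 or fewer, the 5 genes most like Ezh1 and Ezh2, and Axin2 and Ctnnb1. One gene picked this way is left out of the text. Cuta, Kdm2b and the cell type markers named were chosen after their values were seen.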

Additional observations from a re-analysis of the deposited data

How the results depend on the processing

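Phf19 passed and was lower in every alternative that tested it, and Ezh1, Jarid2, Mtf2, Rbbp4, Rbbp7 and Suz12 passed in none. The number of PRC2 genes called lower, 1 as reported, was 0 where an FPKM of at least 1 in 3 libraries was required, because Phf19 was then not tested, 2 with limma on log2(FPKM + 1) or on log2(FPKM + 0.1), where Ezh2 was added, and 3 with a replicate block as a correlation within animals, where Ezh2 and Phf1 were added. The number called higher, 0 as reported, was 1 with DESeq2 and 1 with that correlation, in both cases Eed. The cause of these differences was not tested. With fold change over 2 required as well, 2177 genes in all were called with that correlation and 2042 with DESeq2. With limma on log2(FPKM + 0.1) there were 1691, as against 1906 in the fit reported. The share of all genes past an adjusted p alone was taken only for the fit reported. With a replicate block by animal, 2008 genes were called in all, as against 1906 without it, and with a replicate block by label number 1421, and neither changed the call of a PRC2 gene. limma on log2(FPKM + 1), a scale that understates changes of low genes, called 877 genes. With each library left out in turn, 1311 to 1961 genes were called. The median log2 fold change of the PRC2 genes ranged from -0.18 (without GOF replicate 1) to 0.01 over the libraries left out, where -0.06 was reported. Directions of the smallest changes were not stable. Suz12 ranged from -0.07 to 0.04, Rbbp7 from -0.12 to 0.07 and Mtf2 from -0.24 to 0.01 with a library left out, with Suz12 at 0.04 without Control replicate 0 and 0.01 without GOF replicate 2, Rbbp7 at 0.02 without GOF replicate 0 and 0.07 without GOF replicate 2, and Rbbp7 at 0.00 with DESeq2. The Phf1 share among Polycomb-like genes differed by -2.09 to 0.955 points with a library left out, the latter without Control replicate 0, where -0.986 was reported. The Rbbp7 share differed by 2.0 points on fragments per kilobase, as against 2.95. At 28 to 106 fragments per library, Phf19 is the PRC2 gene whose precision depth limits most. For the other gene lists, counts of called genes moved by over 1.5 times, or to or from 0, in 92 instances across lists, directions and alternatives.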
